A study of Homo sapiens with 12 samples.

Results

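The 34 genes described here make, take up, move, store or export cholesterol, or control these steps. They are a list of sterol metabolism genes out of 57820 gene identifiers in the count files. They were set by function with no threshold on a measured value, though with earlier results of these data known. They were followed in TE10 and Kyse410, which are established lines derived from human squamous carcinomas of the esophagus. All 34 were matched to an identifier and 33 had enough reads to be tested. NPC1L1, a cholesterol uptake transporter of the intestine, had 14 reads over all 12 libraries and was not tested.

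Polyadenylated RNA was sequenced from 4 groups of 3 libraries: TE10 cells with a UHRF1 short hairpin RNA (shRNA), TE10 cells expressing a scramble control, Kyse410 cells expressing the UHRF1 shRNA and Kyse410 cells expressing the scramble control. All 4 groups were stably infected cells. The labels do not say how many hairpins or clones were used, nor whether the 3 libraries of a group are separate cultures, so the p-values measure only their spread, which may be technical. UHRF1, a ubiquitin ligase, recognises hemimethylated DNA and brings DNMT1 to it during replication.

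Cells sense cholesterol in the membrane of the endoplasmic reticulum. When it is scarce, SCAP escorts the transcription factor SREBP2, made from SREBF2, to the Golgi, where it is cut and released to switch on the genes of cholesterol synthesis and uptake. When it is plentiful, INSIG1 and INSIG2 hold SCAP back, and the liver X receptors (LXRs), which bind oxysterols, switch on export pumps such as ABCA1 and ABCG1. INSIG1 is itself an SREBP2 target. In the counts that follow, the SREBF2 targets are 24 genes, namely the 18 synthesis enzymes with INSIG1, STARD4, NPC1, NPC1L1, LPIN1 and TMEM97, and the LXR targets are ABCA1, ABCG1 and MYLIP.

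The 250 bases before the start of 4 genes on which the results turn are shown, since SREBP2 acts together with NF-Y at such promoters. The sequences are RefSeq's (build GRCh38.p14), each printed 5′ to 3′ on the gene's own strand. Capitals mark matches, on either strand, to the sterol regulatory element core TCACNCCAC, to its first 7 letters TCACNCC or to CCAAT, the box that NF-Y binds, whose reverse complement is ATTGG. The SREBF2 promoter (chr22:41832855-41833104, plus strand) is that of the factor's own gene. INSIG1 (chr7:155297628-155297877, plus strand) had the largest fall of the 33 members in TE10. HMGCS1 (chr5:43313413-43313662, minus strand) fell in both lines, and MVD (chr16:88663092-88663341, minus strand) fell in TE10 and rose in Kyse410.
SREBF2: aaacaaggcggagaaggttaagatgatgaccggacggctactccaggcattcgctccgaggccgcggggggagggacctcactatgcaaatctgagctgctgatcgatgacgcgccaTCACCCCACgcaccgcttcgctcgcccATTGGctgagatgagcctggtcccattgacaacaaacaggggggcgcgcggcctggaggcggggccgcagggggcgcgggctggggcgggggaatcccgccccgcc
INSIG1: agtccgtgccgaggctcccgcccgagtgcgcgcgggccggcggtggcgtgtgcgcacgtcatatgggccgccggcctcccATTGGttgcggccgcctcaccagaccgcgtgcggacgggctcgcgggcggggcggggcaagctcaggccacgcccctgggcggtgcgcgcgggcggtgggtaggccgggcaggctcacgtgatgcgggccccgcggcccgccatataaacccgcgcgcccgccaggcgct
HMGCS1: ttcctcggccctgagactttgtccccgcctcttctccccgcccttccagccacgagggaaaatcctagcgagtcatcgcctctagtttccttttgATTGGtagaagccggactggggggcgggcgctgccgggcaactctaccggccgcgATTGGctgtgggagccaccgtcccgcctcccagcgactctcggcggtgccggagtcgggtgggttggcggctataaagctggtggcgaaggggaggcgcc
MVD: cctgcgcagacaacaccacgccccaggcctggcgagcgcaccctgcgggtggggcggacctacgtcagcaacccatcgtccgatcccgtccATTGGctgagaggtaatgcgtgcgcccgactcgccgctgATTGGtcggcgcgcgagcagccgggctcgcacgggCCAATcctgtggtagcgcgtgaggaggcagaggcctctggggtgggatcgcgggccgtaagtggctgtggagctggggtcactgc

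The SREBF2 promoter held the core as TCACCCCAC, on the plus strand with its first base 133 bases before the start, and an ATTGG 106 bases before it. Of 35116 RefSeq promoters of 300 bases (250 before to 50 after the start), 1.13% held the core. Promoters were at hand for 29 of the 34 members (40 promoters), and that of SREBF2 was the only one of the 40 with the core. The shorter TCACNCC, which lies within every match to the core, was in 32.1% of the 28 promoters of SREBF2 targets, covering 7 of 21 target genes, and in 15.5% of all promoters. HMGCS1 was among these genes, with TCACTCC after the start and so outside the bases printed. The same site was counted again in a second, overlapping HMGCS1 promoter. TCACNCC was in 13 of the 40 member promoters, 9 of them of SREBF2 targets, so the few promoters of other members held it at a similar share. CCAAT was in 67.9% of the 28 promoters of SREBF2 targets, covering 17 of 21 target genes, and in 34.6% of all. For the LXR element, only an exact direct repeat of AGGTCA with any 4 bases between was searched. It was in 7 of all promoters (0.0199%) and in none of the 40. A match this rare was unlikely among 40 promoters, so its absence does not show that they lack LXR elements. These are matches of letters within a short window. Elements may lie outside it, or inside it with other letters.

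The libraries held 7857662 to 12005229 reads in genes. UHRF1 (ENSG00000034063) was looked at first to check the labels, in counts per 1e6 scaled reads (CPM, with TMM scaling, used for all levels below). UHRF1 lay at 82.1, 86.8 and 88.9 CPM in TE10 shUHRF1 libraries and at 173, 179 and 184 CPM in TE10 scramble libraries (log2 fold change −1.06, SE 0.0526, adjusted p = 3.22e-23). It lay at 42.1, 43.5 and 41.9 CPM in Kyse410 shUHRF1 libraries and at 101, 101 and 95.1 CPM in Kyse410 scramble libraries (log2 fold change −1.22, SE 0.0573, adjusted p = 1.62e-24). The shRNA lowered UHRF1 in both lines, with no overlap between libraries. Summed over 8 squamous markers, levels were 909 to 946 CPM in TE10 shUHRF1 and 1190 to 1210 CPM in TE10 scramble libraries, and 612 to 657 CPM in Kyse410 shUHRF1 and 476 to 483 CPM in Kyse410 scramble libraries, with none of the 8 at 0 in any group. TP63 averaged 62.4 CPM in TE10 shUHRF1, 101 CPM in TE10 scramble, 108 CPM in Kyse410 shUHRF1 and 97.5 CPM in Kyse410 scramble libraries, so this squamous marker was present in all groups. The keratin KRT5 averaged 8.05 CPM in TE10 shUHRF1 and 67.4 CPM in TE10 scramble libraries and fell by 3.06 on the log2 scale (SE 0.117, adjusted p = 4.21e-28), while in Kyse410 it was low, at 1.37 CPM with the shRNA and 1.14 CPM with the scramble. KRT14 averaged 11.4 CPM in TE10 shUHRF1 and 55.2 CPM in TE10 scramble libraries, a fall of 2.28 (SE 0.115), and it fell by 1.79 in Kyse410 as well (SE 0.243), against the summed level there. In TE10 6 of the 7 tested squamous markers fell and 1 rose, and in Kyse410 1 fell and 5 rose. Of all genes tested, 20% fell and 18.8% rose in TE10, and 26.7% fell and 22.6% rose in Kyse410. Leukocyte markers summed to at most 0.819 CPM in any library. Fibroblast markers summed to 49.4 to 55.8 CPM in TE10 shUHRF1 and 43.9 to 47.8 CPM in TE10 scramble libraries, and to 150 to 162 CPM in Kyse410 shUHRF1 and 114 to 124 CPM in Kyse410 scramble libraries, nearly all of it COL1A1, with COL1A2, COL3A1 and LUM at 0.216 CPM or less on average in every group. COL1A1 rose in TE10 (0.26, SE 0.0717) and in Kyse410 (0.43, SE 0.0514), whereas PDGFRB fell in both. PDGFRB averaged 0.736 CPM in TE10 shUHRF1 and 3.6 CPM in TE10 scramble libraries (log2 −2.25, SE 0.367) and 3.47 CPM in Kyse410 shUHRF1 and 5.8 CPM in Kyse410 scramble libraries (−0.74, SE 0.226). Endothelial markers (2 of 3 matched) summed to 12.3 to 15.1, 7.37 to 10.9, 91 to 105 and 24.8 to 25.2 CPM in the same 4 groups, nearly all of it CDH5, with VWF at 0.394 CPM or less on average. Mitochondrially encoded mRNAs took 4.52 to 5.18% of gene reads in TE10 shUHRF1, 5.32 to 5.42% in TE10 scramble, 2.79 to 2.86% in Kyse410 shUHRF1 and 1.60 to 1.72% in Kyse410 scramble libraries. With these mRNAs left out of the fit, no call on any member changed. The part of the squamous, fibroblast and endothelial markers in the results below was not tested, and in bulk RNA fewer cells of a type and less RNA per cell cannot be told apart.

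With the UHRF1 shRNA, most of the sterol genes were lower in TE10, whereas in Kyse410 they moved in either direction. In TE10, 21 of the 33 tested members fell and 1 rose (SCARB1), with a median log2 fold change of −0.39. A gene counts as fallen or risen at an edgeR quasi-likelihood adjusted p under 0.05 over all 16060 genes tested. Of all genes, 20% fell and 18.8% rose in TE10, with a median of 0. In Kyse410, 8 members fell and 11 rose, against 26.7% and 22.6% of all genes, and the median was 0.02 against −0.03 over all genes. The shUHRF1 libraries lay entirely below the scramble libraries for 22 of the 33 members in TE10 (23.8% of all genes) and for 8 in Kyse410 (30% of all genes). They lay entirely above for 1 member in TE10 (23.1% of all genes) and for 12 in Kyse410 (25.6% of all genes).

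**Figure D1:**
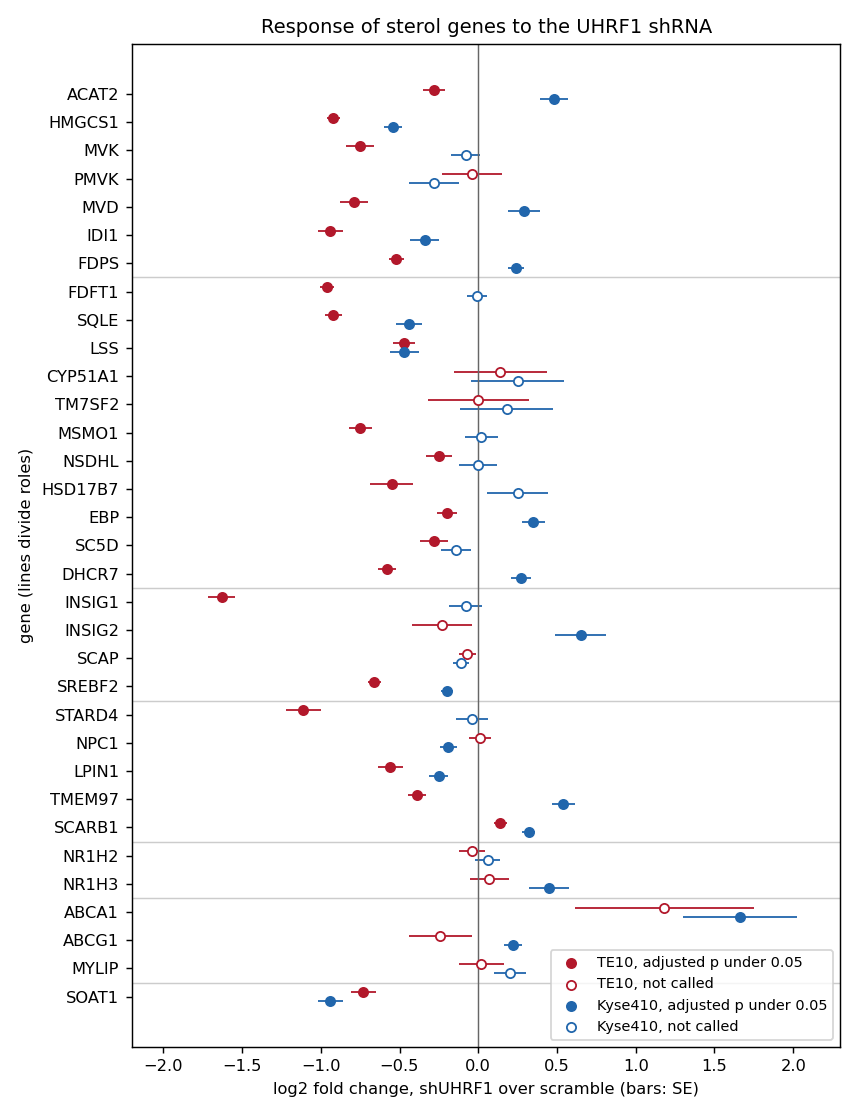
Log2 fold change of shUHRF1 over scramble (horizontal axis; bars are SE) of the 33 tested members, ordered by role, in TE10 (red) and Kyse410 (blue), with filled points where the adjusted p was under 0.05. In TE10, 21 filled points lie below 0 and 1 above; in Kyse410, 8 lie below and 11 above.

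The lines' responses were compared by the difference of the 2 log2 fold changes, Kyse410 minus TE10, fitted in the same model. 19 of the 33 members had a called difference, all of them positive, meaning a smaller fall or a rise in Kyse410. Of all genes, 19% had a positive and 19.9% a negative called difference. 7 members fell in both lines: HMGCS1, IDI1, SQLE, LSS, SREBF2, LPIN1 and SOAT1. They make up 33.3% of the 21 that fell in TE10 and 87.5% of the 8 that fell in Kyse410. Of all genes tested 9.03% fell in both lines, which is 45.2% of those that fell in TE10 and 33.8% of those that fell in Kyse410. The members' share was thus below that of all genes for the TE10 list and above it for the Kyse410 list. Both lists of members are short, and 21 of the 33 tested members fell in TE10, against 20% of all genes. Any list of members would thus hold more that fell in TE10, so these shares do not show that the 2 responses are linked. 6 members fell in TE10 and rose in Kyse410, namely ACAT2, MVD, FDPS, EBP, DHCR7 and TMEM97, which is 28.6% of the 21 that fell in TE10 and 54.5% of the 11 that rose in Kyse410. Of all genes 3.63% showed this pair of directions, which is 18.2% of those that fell in TE10 and 16.1% of those that rose in Kyse410. The same limit holds for these shares. For all 6 members the difference between the lines was called.

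The mevalonate steps, which turn acetyl-CoA into farnesyl diphosphate, fell in TE10 for 6 of 7 genes, where 20% of all genes fell. In Kyse410 they fell for 2 and rose for 3, where 26.7% of all genes fell and 22.6% rose. HMGCS1, the cytosolic HMG-CoA synthase, lay at 204, 212 and 214 CPM in TE10 shUHRF1 libraries and at 398, 398 and 396 CPM in TE10 scramble libraries. Kyse410 libraries had 49.7, 56.9 and 49.9 CPM with the shRNA and 75.3, 79.1 and 73.6 CPM with the scramble. HMGCS1 was thus lower with the shRNA in every library of both lines. Its log2 fold change was −0.92 in TE10 (SE 0.0434, adjusted p = 3.21e-24) and −0.54 in Kyse410 (SE 0.056, adjusted p = 1.01e-11). The 2 responses differed by 0.38 (SE 0.0711, adjusted p = 1.57e-05).

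FDPS, which makes farnesyl diphosphate, moved in opposite directions in the lines. It lay at 152, 141 and 152 CPM in TE10 shUHRF1 libraries, against 215, 214 and 210.1 CPM in TE10 scramble libraries. Kyse410 libraries of FDPS had 116, 99.3 and 108 CPM with the shRNA and 93.2, 89.1 and 91.0 CPM with the scramble. The libraries did not overlap in either line, with shUHRF1 below scramble in TE10 and above it in Kyse410. The log2 fold changes were −0.52 in TE10 (SE 0.0494) and 0.24 in Kyse410 (SE 0.0523, adjusted p = 0.000123), and their difference was 0.76 (SE 0.072, adjusted p = 1.2e-12). ACAT2, the thiolase that joins acetyl-CoA units at the head of the pathway, showed the same pair of directions. It lay at 63.0, 59.8 and 60.9 CPM in TE10 shUHRF1 libraries and at 75.7, 76.9 and 71.4 CPM in TE10 scramble libraries. Kyse410 libraries of ACAT2 had 22.5, 25.8 and 23.2 CPM with the shRNA and 17.2, 18.1 and 16.2 CPM with the scramble. The groups of ACAT2 did not overlap in either line. The responses of ACAT2, −0.28 in TE10 (SE 0.0686) and 0.48 in Kyse410 (SE 0.0897), differed by 0.77 (SE 0.113, adjusted p = 1.75e-07). Other annotated genes on the opposite strand, among them SOD2 and TCP1, overlap 52.3% of its exon bases, and the strand setting of the counting is not given in the sources used here, so part of its reads cannot be told apart from theirs.

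MVD, the decarboxylase that makes isopentenyl diphosphate, averaged 26.3 ± 2.32 CPM in TE10 shUHRF1 and 45.5 ± 2.92 CPM in TE10 scramble libraries (SD, n = 3 each). In Kyse410 it averaged 20.7 ± 0.465 CPM with the shRNA and 17.0 ± 1.48 CPM with the scramble (SD, n = 3 each). Its fall in TE10 (log2 −0.79, SE 0.0907) and rise in Kyse410 (0.29, SE 0.0994, adjusted p = 0.012) differed by 1.08 (SE 0.135, adjusted p = 2.95e-09). The Kyse410 rise was not called without the first Kyse410 scramble library (0.25, adjusted p = 0.0692). IDI1, the isomerase of the next step, fell by 0.94 in TE10 (SE 0.0799) and by 0.34 in Kyse410 (SE 0.0936, adjusted p = 0.00199), and the Kyse410 call was lost without the third Kyse410 scramble library (−0.24, adjusted p = 0.0521). Mevalonate kinase, MVK, fell by 0.75 in TE10 (SE 0.0868) and was not called in Kyse410 (−0.08, 95% interval −0.26 to 0.11). PMVK, the kinase that follows it, was not called in either line, at −0.04 in TE10 (−0.43 to 0.34) and −0.28 in Kyse410 (−0.6 to 0.04). Without the third Kyse410 scramble library PMVK passed the test in Kyse410, at −0.41 (adjusted p = 0.0433).

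The sterol steps run from farnesyl diphosphate through squalene and lanosterol to cholesterol. 9 of these 11 enzymes fell in TE10 (20% of all genes), while in Kyse410 2 fell and 2 rose (26.7% and 22.6% of all genes). FDFT1, squalene synthase and the first enzyme committed to sterols, lay at 197, 181 and 184 CPM in TE10 shUHRF1 libraries, against 366, 362 and 362 CPM in TE10 scramble libraries. In Kyse410 FDFT1 was at 45.6, 39.98 and 42.5 CPM with the shRNA and at 41.6, 42.6 and 44.4 CPM with the scramble. FDFT1 thus fell in every TE10 library, while the Kyse410 libraries overlapped. Its log2 fold change was −0.96 in TE10 (SE 0.0445, adjusted p = 1.79e-24) and −0.01 in Kyse410 (95% interval −0.13 to 0.12), and these differed by 0.95 (SE 0.0774, adjusted p = 9.07e-15).

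SQLE, squalene epoxidase, a slow step of the pathway, fell in both lines. It lay at 110.4, 106 and 97.0 CPM in TE10 shUHRF1 libraries and at 203, 195 and 196 CPM in TE10 scramble libraries. In Kyse410 SQLE was at 19.98, 21.0 and 19.9 CPM with the shRNA and at 26.3, 28.8 and 28.0 CPM with the scramble. In both lines every shUHRF1 library lay below every scramble library of SQLE. The log2 fold changes were −0.92 in TE10 (SE 0.0533) and −0.44 in Kyse410 (SE 0.0809), with a difference of 0.48 (SE 0.0975, adjusted p = 7.32e-05). LSS, lanosterol synthase, fell by 0.47 in TE10 (SE 0.0708) and by 0.47 in Kyse410 (SE 0.0934), a difference of 0 with a 95% interval of −0.23 to 0.22.

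Of the enzymes after lanosterol, DHCR7, which carries out a final reduction, averaged 110.8 ± 4.93 CPM in TE10 shUHRF1 and 166 ± 4.16 CPM in TE10 scramble libraries (SD, n = 3 each). In Kyse410 DHCR7 averaged 63.5 ± 6.0 CPM with the shRNA and 52.4 ± 4.41 CPM with the scramble (SD, n = 3 each). It fell by 0.58 in TE10 (SE 0.0572) and rose by 0.27 in Kyse410 (SE 0.0652), a difference of 0.86 (SE 0.0867, adjusted p = 9.95e-12). EBP, the sterol isomerase, fell by 0.20 in TE10 (SE 0.065, adjusted p = 0.013) and rose by 0.35 in Kyse410 (SE 0.0719). MSMO1, a methylsterol oxidase, fell by 0.75 in TE10 (SE 0.0735) and lay at 0.02 in Kyse410 (−0.19 to 0.23). HSD17B7, a ketoreductase, fell by 0.55 in TE10 (SE 0.135) and lay at 0.25 in Kyse410 (−0.13 to 0.64). NSDHL, a sterol dehydrogenase, fell by 0.25 in TE10 (SE 0.081, adjusted p = 0.0114) and SC5D, a desaturase, by 0.28 (SE 0.0909, adjusted p = 0.0113). Neither was called in Kyse410 (NSDHL 0, interval −0.24 to 0.24; SC5D −0.14, interval −0.33 to 0.05), and for neither was the difference between lines called. DESeq2 did not call the TE10 falls of NSDHL, EBP and SC5D, with adjusted p of 0.082, 0.0736 and 0.0673. With a TE10 library left out, NSDHL lost its call without the second shUHRF1 (adjusted p = 0.0803), second scramble (0.0569) or the third scramble library (0.0622), EBP without the third scramble (0.0506), and SC5D without the third shUHRF1 (0.0939) or first scramble library (0.084).

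The other 2 sterol enzymes had few reads. CYP51A1, lanosterol demethylase, averaged 3.05 ± 0.554 CPM in TE10 shUHRF1 and 2.78 ± 0.374 CPM in TE10 scramble libraries (SD, n = 3 each), with 83.2% of its exon bases overlapped by other annotated genes. Some of these genes lie on its own strand, so its count may understate its level. TM7SF2, a sterol reductase, averaged 2.29 ± 0.774 CPM in TE10 shUHRF1 and 2.34 ± 1.15 CPM in TE10 scramble libraries (SD, n = 3 each). Neither was called in any comparison, and the intervals were wide, from −0.45 to 0.73 for CYP51A1 and from −0.65 to 0.65 for TM7SF2 in TE10.

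Among the 4 genes that control SREBP2, INSIG1 and SREBF2 fell in TE10, and SREBF2 fell while INSIG2 rose in Kyse410. INSIG1, which retains SCAP in the endoplasmic reticulum, lay at 24.2, 24.5 and 20.6 CPM in TE10 shUHRF1 libraries and at 70.04, 72.3 and 72.9 CPM in TE10 scramble libraries. In Kyse410 INSIG1 was at 16.7, 13.7 and 15.1 CPM with the shRNA and at 17.4, 13.98 and 16.2 CPM with the scramble. The TE10 groups stood far apart, while the Kyse410 groups overlapped and lay below both TE10 groups. INSIG1 fell by 1.63 in TE10 (SE 0.0882, adjusted p = 8.9e-22), to 32.2% of its control level, and its Kyse410 change was −0.08 (95% interval −0.29 to 0.14). The difference of 1.56 (SE 0.139, adjusted p = 2.07e-13) was the largest of the 33 members.

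SREBF2 itself lay at 194, 207 and 199 CPM in TE10 shUHRF1 libraries and at 315, 319 and 317 CPM in TE10 scramble libraries. In Kyse410 it lay at 403, 361 and 365 CPM with the shRNA and at 436, 431 and 426 CPM with the scramble. SREBF2 was lower with the shRNA in both lines, without overlap. Its log2 fold change was −0.66 in TE10 (SE 0.0431, adjusted p = 1.63e-18) and −0.20 in Kyse410 (SE 0.039, adjusted p = 2.88e-05), a difference of 0.46 (SE 0.0581, adjusted p = 3.71e-09). INSIG2, the second retention protein, averaged 10.2 ± 2.31 CPM in Kyse410 shUHRF1 and 6.54 ± 0.587 CPM in Kyse410 scramble libraries (SD, n = 3 each). It rose by 0.65 in Kyse410 (SE 0.16, adjusted p = 0.000602) and was not called in TE10 (−0.23, interval −0.6 to 0.15). SCAP, the escort of SREBP2, was not called in either line, at −0.07 in TE10 (−0.18 to 0.04) and −0.11 in Kyse410 (−0.22 to −0.01, adjusted p = 0.0697). It passed the test in Kyse410 without the first shUHRF1 library (−0.14, adjusted p = 0.0424) or without the second scramble library (−0.17, adjusted p = 0.00721).

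**Figure D2:**
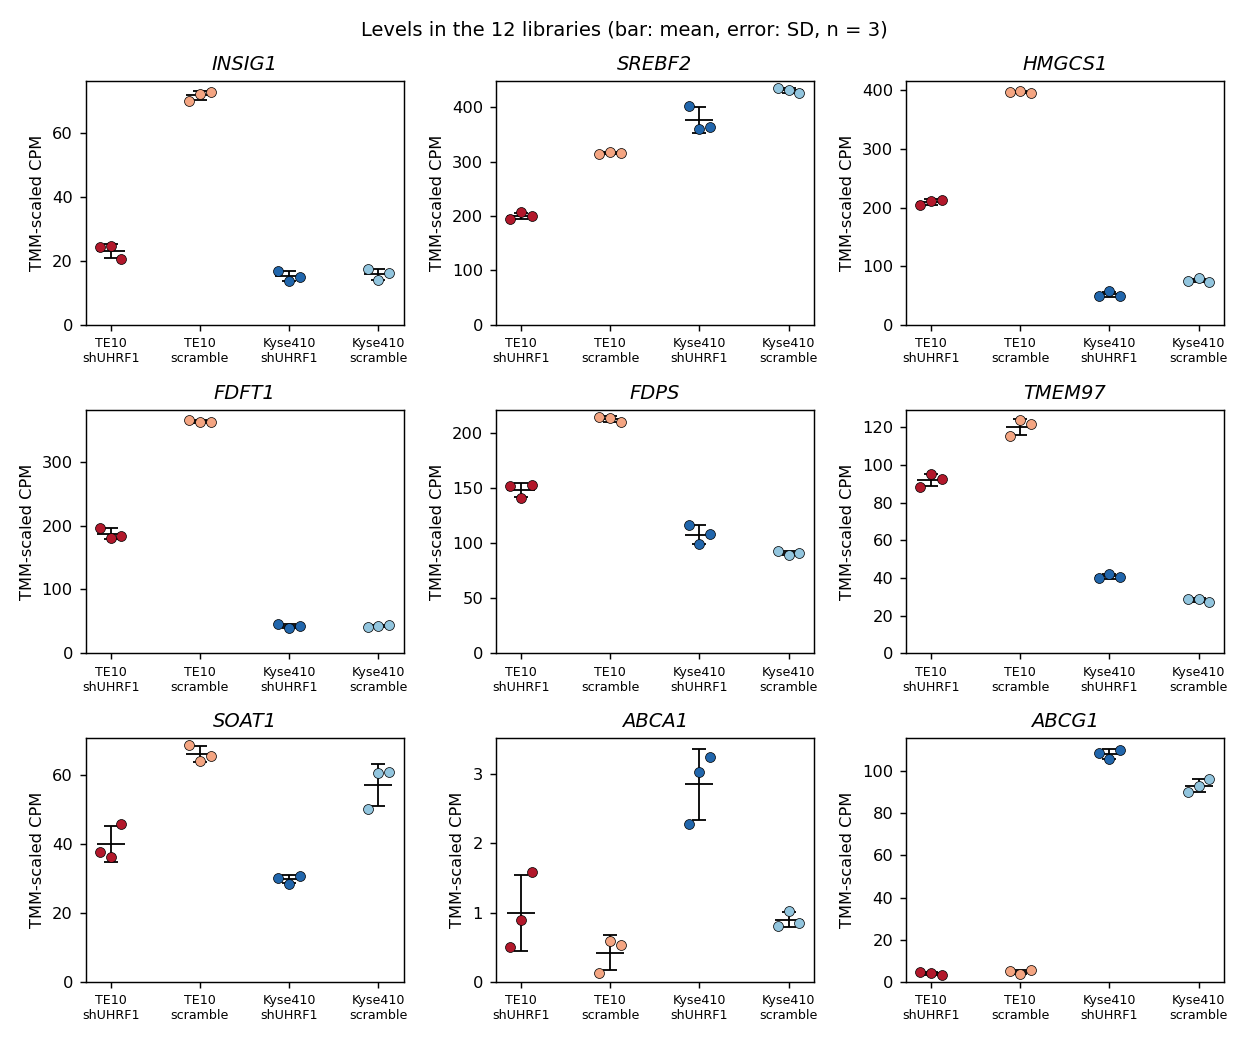
Levels (vertical axis, TMM-scaled CPM from 0) of 9 members in each of the 12 libraries, with points for libraries, the mean as a horizontal bar and the SD as error (n = 3 per group). INSIG1 stands at 20.6 to 24.5 CPM in TE10 shUHRF1 and at 70.04 to 72.9 CPM in TE10 scramble libraries, while ABCG1 lies below 6 CPM in all TE10 libraries and above 90 CPM in all Kyse410 libraries.

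Uptake, transport and other SREBP-linked genes moved less uniformly. In TE10, 3 of the 5 tested fell and SCARB1 rose, where 20% of all genes fell and 18.8% rose. STARD4, which carries cholesterol between membranes, averaged 15.9 ± 2.26 CPM in TE10 shUHRF1 and 34.3 ± 1.04 CPM in TE10 scramble libraries (SD, n = 3 each). STARD4 fell by 1.11 in TE10 (SE 0.113, adjusted p = 8.22e-12) and was not called in Kyse410 (−0.04, interval −0.25 to 0.16), with a difference of 1.07 (SE 0.153). TMEM97, a membrane protein that binds NPC1, lay at 88.4, 95.1 and 92.7 CPM in TE10 shUHRF1 libraries and at 115, 124 and 122 CPM in TE10 scramble libraries. In Kyse410 TMEM97 lay at 39.96, 42.0 and 40.4 CPM with the shRNA and at 28.6, 28.8 and 27.0 CPM with the scramble. Its groups did not overlap in either line and lay in opposite order. It fell by 0.39 in TE10 (SE 0.0569) and rose by 0.54 in Kyse410 (SE 0.0712), a difference of 0.92 (SE 0.0912, adjusted p = 4.63e-12).

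LPIN1, a phosphatidate phosphatase under SREBP control, fell in both lines. It lay at 30.03, 34.9 and 28.0 CPM in TE10 shUHRF1 libraries and at 44.7, 47.1 and 45.6 CPM in TE10 scramble libraries. In Kyse410 LPIN1 was at 68.3, 70.3 and 68.3 CPM with the shRNA and at 80.1, 81.8 and 83.8 CPM with the scramble. No shUHRF1 library of LPIN1 reached a scramble library of its line. The falls were 0.56 in TE10 (SE 0.079) and 0.25 in Kyse410 (SE 0.0605, adjusted p = 0.000586). Their difference, 0.32 (SE 0.0998, adjusted p = 0.00887), was not called without the third TE10 shUHRF1 library (0.25, adjusted p = 0.0573).

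NPC1, which exports cholesterol from lysosomes, lay at 52.3, 57.0 and 55.5 CPM in TE10 shUHRF1 libraries and at 52.6, 57.6 and 53.6 CPM in TE10 scramble libraries. In Kyse410 NPC1 was at 122, 122 and 111 CPM with the shRNA and at 144, 126 and 134 CPM with the scramble. The TE10 groups of NPC1 overlapped and the Kyse410 groups did not. It was not called in TE10 (0.01, interval −0.13 to 0.15) and fell by 0.19 in Kyse410 (SE 0.053, adjusted p = 0.00297), a call lost without the first Kyse410 scramble library (−0.13, adjusted p = 0.0686). The difference, −0.19 (adjusted p = 0.0763), passed the test without the first TE10 shUHRF1 library (−0.23, adjusted p = 0.0443), without the second TE10 scramble library (−0.23, adjusted p = 0.0496) or without the second Kyse410 scramble library (−0.24, adjusted p = 0.032). SCARB1, the receptor for high-density lipoprotein, was the only member that rose in both lines. It lay at 440, 424 and 417 CPM in TE10 shUHRF1 libraries and at 395, 393 and 373 CPM in TE10 scramble libraries. In Kyse410 SCARB1 lay at 276, 263 and 269 CPM with the shRNA and at 216, 205 and 226 CPM with the scramble. Every shUHRF1 library was above every scramble library of its line. The log2 fold changes were 0.14 in TE10 (SE 0.0397, adjusted p = 0.00336) and 0.32 in Kyse410 (SE 0.041, adjusted p = 3.21e-09), and they differed by 0.18 (SE 0.0571, adjusted p = 0.0102).

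SOAT1, which esterifies cholesterol for storage in droplets, had the largest fall of the members in Kyse410. It lay at 30.1, 28.4 and 30.8 CPM in Kyse410 shUHRF1 libraries and at 50.2, 60.5 and 60.8 CPM in Kyse410 scramble libraries. In TE10 it lay at 37.8, 36.3 and 45.9 CPM with the shRNA and at 68.7, 64.2 and 65.4 CPM with the scramble. SOAT1 was lower with the shRNA in both lines, without overlap. It fell by 0.94 in Kyse410 (SE 0.0796, adjusted p = 1.17e-14) and by 0.73 in TE10 (SE 0.0809, adjusted p = 1.32e-10). The difference of −0.21 (interval −0.44 to 0.02, adjusted p = 0.138) passed the test without the first Kyse410 scramble library (−0.30, adjusted p = 0.034).

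No LXR receptor or target was called lower in either line. In TE10 none of the 3 LXR targets was called, while in Kyse410 ABCA1 and ABCG1 rose, as did 22.6% of all genes. ABCA1, which loads cholesterol onto apolipoprotein A-I, lay at 2.28, 3.03 and 3.25 CPM in Kyse410 shUHRF1 libraries and at 0.813, 1.02 and 0.853 CPM in Kyse410 scramble libraries. In TE10 it lay at 0.509, 0.894 and 1.59 CPM with the shRNA and at 0.129, 0.594 and 0.53 CPM with the scramble. These levels rested on 25, 37 and 30 reads against 10, 10 and 9 in Kyse410 and on 4, 7 and 12 reads against 1, 5 and 5 in TE10, and the groups overlapped in TE10 alone. ABCA1 rose by 1.66 in Kyse410 (SE 0.361, adjusted p = 0.000115). It had enough reads to be tested only through the Kyse410 shUHRF1 libraries, where it was highest, so the filter favoured this direction. With no filter on low counts the call on ABCA1 was kept. In TE10 its change was 1.18 (interval 0.04 to 2.33, adjusted p = 0.0943), and it passed the test without the first TE10 shUHRF1 library (1.53, adjusted p = 0.0382). The difference between the lines was 0.48 with an interval of −0.98 to 1.94, so the depth does not show whether they differ.

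ABCG1, which passes cholesterol to high-density lipoprotein, lay at 109, 106 and 110.0 CPM in Kyse410 shUHRF1 libraries and at 90.0, 92.9 and 96.3 CPM in Kyse410 scramble libraries. In TE10 it lay at 4.83, 3.96 and 3.18 CPM with the shRNA and at 5.04, 3.57 and 5.51 CPM with the scramble. The Kyse410 groups of ABCG1 did not overlap and the TE10 groups did. It rose by 0.22 in Kyse410 (SE 0.059, adjusted p = 0.0018) and was at −0.24 in TE10 (interval −0.64 to 0.16). The difference of 0.46 (adjusted p = 0.0757) passed the test without the first TE10 shUHRF1 library (0.61, adjusted p = 0.0353) or without the second TE10 scramble library (0.62, adjusted p = 0.0209). MYLIP, a ubiquitin ligase that marks lipoprotein receptors for degradation, lay at 23.5, 24.3 and 26.8 CPM in Kyse410 shUHRF1 libraries and at 22.4, 19.1 and 23.2 CPM in Kyse410 scramble libraries. In TE10 it lay at 10.8, 9.97 and 11.4 CPM with the shRNA and at 11.5, 9.03 and 11.1 CPM with the scramble. Kyse410 shUHRF1 libraries of MYLIP were all above their controls, though it was not called in Kyse410 (0.20, interval 0 to 0.4, adjusted p = 0.0966) or in TE10 (0.02, interval −0.26 to 0.31).

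Of the receptors, NR1H3 (LXR alpha) lay at 11.9, 14.6 and 11.7 CPM in Kyse410 shUHRF1 libraries and at 8.94, 9.79 and 9.48 CPM in Kyse410 scramble libraries. In TE10 it lay at 17.6, 15.2 and 15.9 CPM with the shRNA and at 15.0, 17.0 and 14.5 CPM with the scramble. The Kyse410 groups of NR1H3 did not overlap and the TE10 groups did. It rose by 0.45 in Kyse410 (SE 0.129, adjusted p = 0.00305) and was not called in TE10 (0.07, interval −0.18 to 0.32). The difference of 0.38 (interval 0.02 to 0.74) had an adjusted p of 0.0895. NR1H2 (LXR beta) lay at 42.9, 39.3 and 34.5 CPM in Kyse410 shUHRF1 libraries and at 38.7, 36.9 and 36.3 CPM in Kyse410 scramble libraries. In TE10 it lay at 45.2, 40.4 and 40.9 CPM with the shRNA and at 46.8, 43.3 and 40.2 CPM with the scramble. The groups of NR1H2 overlapped in both lines, with log2 fold changes of 0.06 in Kyse410 (−0.09 to 0.22) and −0.04 in TE10 (−0.21 to 0.13).

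Set side by side, 19 of the 23 tested SREBF2 targets fell in TE10 and none rose, with a median log2 fold change of −0.55, while the 3 LXR targets had a median of 0.02. In Kyse410, 6 SREBF2 targets fell and 6 rose, with a median of −0.01, and 2 of the 3 LXR targets rose, with a median of 0.22. For the difference between lines, 16 of the 23 SREBF2 targets were called and all 16 were positive (median 0.60), and none of the 3 LXR targets was called (median 0.46). Over all genes the 3 medians were 0, −0.03 and −0.01. Of all genes 20% fell and 18.8% rose in TE10, and 26.7% fell and 22.6% rose in Kyse410. The Kyse410 counts of SREBF2 targets thus lie near the shares of all genes. Called differences were positive for 19% and negative for 19.9% of all genes. The medians are descriptions of these lists, and no test was made of one list against the other.

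**Figure D3:**
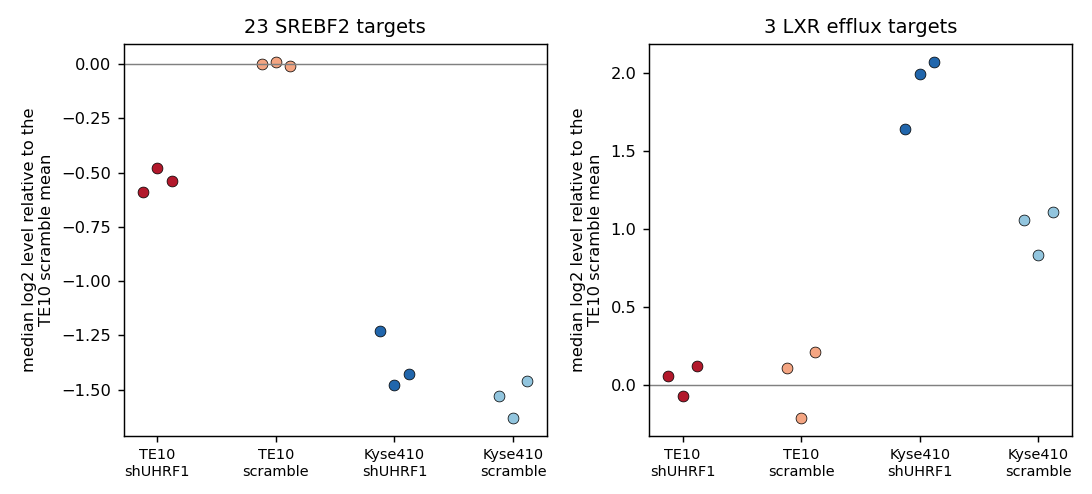
Median log2 level of 23 SREBF2 targets (left) and 3 LXR targets (right) in each library, relative to each gene's mean in TE10 scramble libraries, which is 0 (vertical axes differ in range). For the SREBF2 targets, TE10 shUHRF1 libraries lie at −0.59 to −0.48 and TE10 scramble libraries at −0.01 to 0.01, while Kyse410 shUHRF1 libraries lie at −1.48 to −1.23 and Kyse410 scramble libraries at −1.63 to −1.46.

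At baseline, that is, among scramble libraries, Kyse410 had far less RNA of most SREBF2 targets than TE10 and more of ABCG1 and MYLIP. Of 33 members, 22 were lower and 6 higher in Kyse410, where 37.1% of all genes were lower and 36.7% higher. The Kyse410 libraries lay entirely below the TE10 libraries for 23 members (38.3% of all genes) and entirely above for 7 (37.8% of all genes). 18 of the 23 SREBF2 targets were lower, 3 were higher (PMVK, NPC1 and LPIN1) and the median log2 difference, Kyse410 over TE10, was −1.53. FDFT1 was lower by the most, at −3.08 (SE 0.0515, adjusted p = 1.22e-45), which is 11.8% of the TE10 level. SQLE was at −2.84 (SE 0.0612), MSMO1 at −2.49 (SE 0.0837), HMGCS1 and NSDHL each at −2.39, HSD17B7 at −2.35 and INSIG1 at −2.17 (SE 0.0882). The other synthesis enzymes called lower ranged from −2.12 for ACAT2 to −0.67 for SC5D, and TMEM97 was at −2.10 and STARD4 at −0.51.

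SREBF2 itself went the other way, higher in Kyse410 by 0.45 (SE 0.04, adjusted p = 1.77e-14). NPC1 was higher by 1.30 (SE 0.0602), LPIN1 by 0.84 (SE 0.066) and PMVK by 0.54 (SE 0.171). ABCG1 had the largest difference of the 33 members, 4.30 (SE 0.102, adjusted p = 1.09e-38), a 19.6-fold higher level in Kyse410. MYLIP was higher by 1.03 (SE 0.12), and ABCA1 was also at 1.03 but was not called (interval −0.07 to 2.13). Both LXR receptors were lower in Kyse410, NR1H3 at −0.72 (SE 0.129) and NR1H2 at −0.21 (SE 0.0803, adjusted p = 0.0153). SCARB1 was at −0.84 (SE 0.0407) and SOAT1 at −0.21 (SE 0.0736, adjusted p = 0.00836). DESeq2 called neither NR1H2 (adjusted p = 0.106) nor SOAT1 (adjusted p = 0.0997). SOAT1 also lost its call without the first Kyse410 scramble library (−0.12, adjusted p = 0.162), and NR1H2 without the first TE10 scramble library (−0.16, adjusted p = 0.101) or the third Kyse410 scramble library (−0.20, adjusted p = 0.0501). CYP51A1, TM7SF2, INSIG2 and SCAP were not called at baseline, with SCAP at −0.11 (interval −0.21 to 0). SCAP passed the test there with any of 4 libraries left out: the first TE10 shUHRF1 (adjusted p = 0.0397), the second TE10 scramble (0.0451), the first Kyse410 shUHRF1 (0.0457) and the third Kyse410 scramble library (0.0133).

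The baseline comparison shares its scramble libraries with both knockdown comparisons and with their difference, so their values are given side by side and not related to each other. INSIG1 had −2.17 at baseline, −1.63 in TE10 and −0.08 in Kyse410, and FDFT1 had −3.08, −0.96 and −0.01. Among shUHRF1 libraries, which the baseline comparison does not use, Kyse410 levels were a median of 62.3% of TE10 levels over the 23 SREBF2 targets. Among scramble libraries the median was 34.5%.

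**Figure D4:**
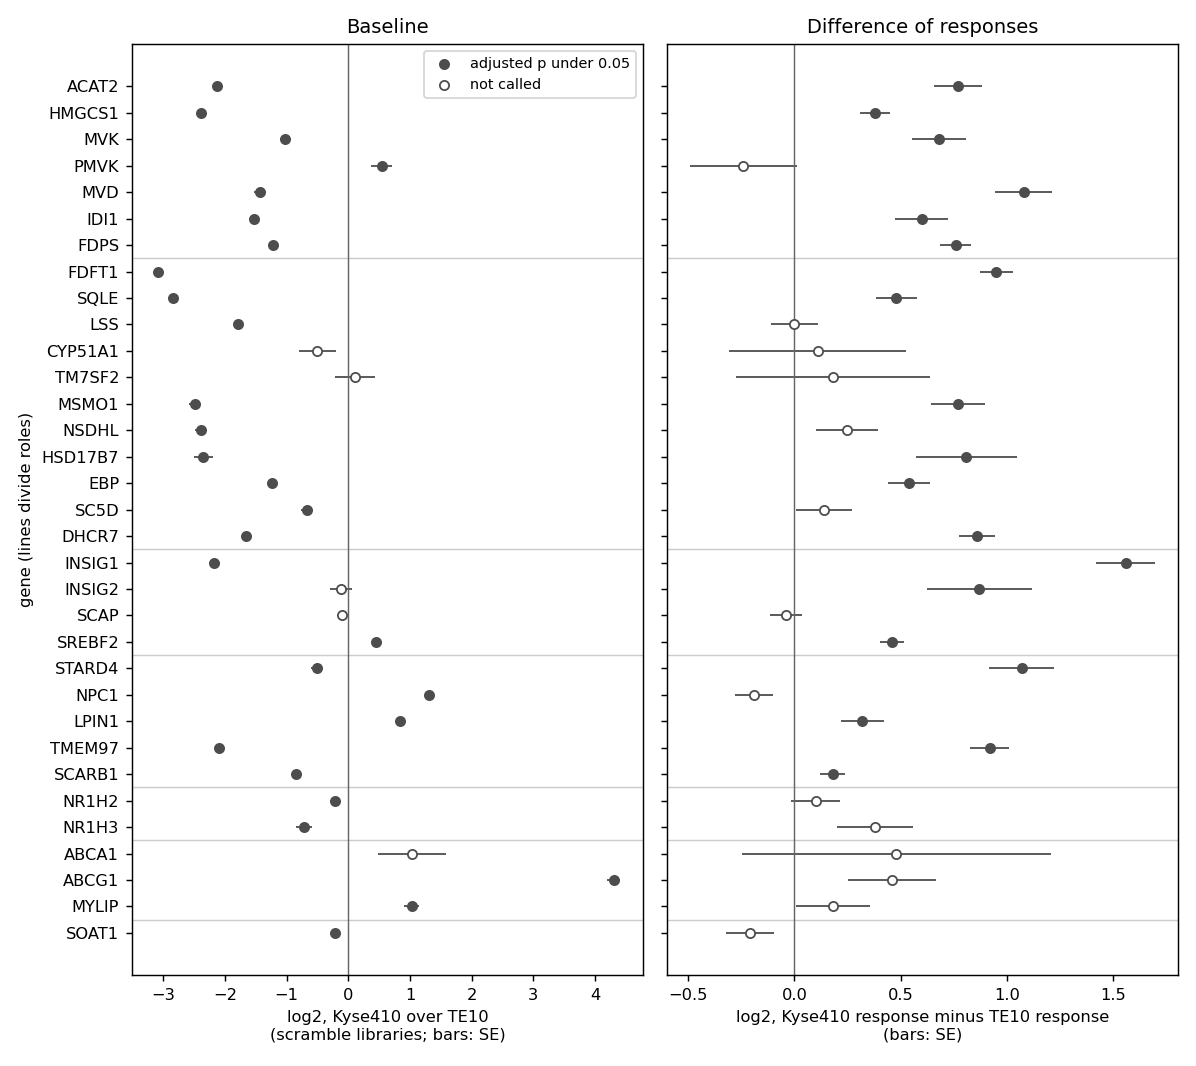
Left, log2 level of Kyse410 over TE10 in scramble libraries for the 33 tested members. Right, the log2 response to the shRNA in Kyse410 minus that in TE10; bars are SE and filled points have an adjusted p under 0.05. At baseline 22 filled points lie below 0 and 6 above, and on the right all 19 filled points lie above 0.

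Between genes, levels can be compared only per length, here as reads per kilobase of exon per 1e6 reads (RPKM) with exon lengths from an annotation of another build. By mean RPKM among TE10 shUHRF1 libraries SCARB1 stood highest of the members, at 55.2, followed by HMGCS1 at 44.6 and FDPS at 39.9. Among Kyse410 scramble libraries SREBF2 stood highest, at 57.1, followed by SCARB1 at 27.9 and FDPS at 24.5. Among TE10 scramble libraries HMGCS1 stood highest, at 84.5, followed by FDFT1 at 69.8 and FDPS at 57.2, and SREBF2 was at 41.9. ABCA1 and NPC1L1 were the lowest in all 4 groups, at most 0.252 and 0.0254 RPKM.

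Further genes of the pathway, listed by function but with earlier results of these data known, were counted in the same fits. Beside them, 18.8% of all genes rose and 20% fell in TE10, and 22.6% rose and 26.7% fell in Kyse410, and with lists this short many of the counts lie near those shares. Of 12 genes of the prenyl and dolichol branch, which draws on farnesyl diphosphate but makes no sterol, 1 rose and none fell in TE10, and none rose and 3 fell in Kyse410. Of 8 genes for SREBP processing and sterol-linked degradation, 2 rose and 3 fell in TE10, and 1 rose and 6 fell in Kyse410. Both ERLIN1 and ERLIN2, membrane proteins of sterol-linked degradation, were among those that fell in both lines. ERLIN1 fell by 0.38 in TE10 and by 0.53 in Kyse410, and ERLIN2 fell by 0.47 and by 0.58. SPRING1, a factor needed for SREBP cleavage, rose by 0.53 in TE10 (SE 0.0965) and fell by 0.47 in Kyse410 (SE 0.106). Of 14 tested sterol transport genes, 2 rose and 6 fell in TE10, and 7 rose and 3 fell in Kyse410. Of 5 tested LXR partners and further LXR targets, 1 rose in TE10 and 4 rose in Kyse410, and none fell in either. RXRA, the partner receptor of the LXRs, rose by 0.27 in TE10 (SE 0.0419) and by 0.31 in Kyse410 (SE 0.0398). Of 4 oxysterol enzymes only CH25H had enough reads to be tested.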

How the data were processed

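The deposited files hold raw read counts per gene as whole numbers for 12 libraries of polyadenylated RNA. The authors made these counts with bcl2fastq 2.19, HISAT2 2.1.0, HTSeq 0.9.1 and build GRCh37.p13, per the submitters' processing notes, which also name DESeq2. Annotation release and strand setting are not stated in those notes. HTSeq's counters of reads in no gene were left out; reads without a feature were 42.88 to 44.66%, ambiguous reads 1.38 to 1.98% and reads not uniquely aligned 5.49 to 6.86% of all reads. Symbols came from GENCODE identifiers of another build (51997 of 57820, holding 98.9% of gene reads). UHRF1, not among them, was named by hand from its identifier.

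Genes were filtered by filterByExpr (16060 kept), scaled by TMM and fitted in edgeR 4.0.16 (R 4.3.3) by quasi-likelihood with a mean per group over all 12 libraries. Adjustment was by Benjamini-Hochberg over the genes tested, with a call at an adjusted p under 0.05. SE is the log2 fold change divided by the root of F. The contrasts were shUHRF1 minus scramble within a line, how far the Kyse410 contrast exceeded that of TE10 and, among scramble libraries, Kyse410 minus TE10. Replicates differed beyond counting error, with a chi-square per degree of freedom of 1.58 to 3.07. Of simulated 2-fold changes 79% were called in TE10 and 84% in Kyse410, and of 1.5-fold changes 62% in each, with 4.08% and 2.67% false calls. The simulation changed 200 of 16060 genes per comparison, on means over all 12 libraries. Far more genes were called in the data, so these rates may not hold there. Alternatives were other scalings, DESeq2 1.42.0, no filter, the 6 libraries of a comparison alone, each library left out, a replicate block and counts without mitochondrially encoded genes.

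The members and lists were chosen with earlier results of these data known. All 34 members are named. Values in each library are given for the 3 members of smallest adjusted p in each direction of each comparison and for INSIG1, SREBF2, HMGCS1, ABCA1, ABCG1, MYLIP, NR1H2, NR1H3 and UHRF1. The CCAAT box and the 7-letter element were added after the first motif search. Plots were made with matplotlib 3.10.9.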

Additional observations from a re-analysis of the deposited data

Results flagged for a closer look

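For 19 members the response to the shRNA differed between the lines by the test of the difference itself (Kyse410 log2 fold change minus TE10 log2 fold change; edgeR adjusted p under 0.05 over all genes). Among the mevalonate steps the difference was 0.77 for ACAT2, 0.38 for HMGCS1, 0.68 for MVK, 1.08 for MVD, 0.60 for IDI1 and 0.76 for FDPS. Among the sterol steps it was 0.95 for FDFT1, 0.48 for SQLE, 0.77 for MSMO1, 0.81 for HSD17B7, 0.54 for EBP and 0.86 for DHCR7. Among the control genes it was 1.56 for INSIG1, 0.87 for INSIG2 and 0.46 for SREBF2. Among transport and other genes it was 1.07 for STARD4, 0.32 for LPIN1, 0.92 for TMEM97 and 0.18 for SCARB1. For SCARB1 both responses were rises and the Kyse410 rise was the larger, and for INSIG2 the Kyse410 rise was called while the TE10 change was not. By the same test, 5 of the 7 tested squamous markers had a positive and 1 a negative called difference. Of all genes, 19% had a positive and 19.9% a negative one. The part of these markers in the differences of the members was not tested.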

How the results depend on the processing

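Over 19 alternatives no member changed direction where called. Of 2473 values 2438 kept their call or their lack of one, 20 lost a call, 15 gained one and none reversed. Direction was not compared for values called neither in the main fit nor in the alternative. The 16 results that changed a call somewhere belong to 13 members. With a library left out, members higher in TE10 were 1 to 2 (main 1) and members with a negative called difference 0 to 1 (main 0). The 2 without the first TE10 shUHRF1 library included ABCA1. The single negative difference was NPC1 without the first TE10 shUHRF1, second TE10 scramble or second Kyse410 scramble library, and SOAT1 without the first Kyse410 scramble library. Members lower in TE10 were 19 to 21, and in Kyse410 10 to 11 were higher and 7 to 9 lower. Replicate numbers did not pair the samples (correlations −0.01 to 0.04), and with the replicate block 131 of 132 results kept their call, the exception being SCAP, called at baseline under the block (−0.11, adjusted p = 0.04) as it was with any of 4 libraries left out (adjusted p 0.0133 to 0.0457). Library totals alone lost the baseline calls of NR1H2 (−0.12) and SOAT1 (−0.12). Low read counts limit ABCA1, CYP51A1 and TM7SF2, and other annotated genes overlap 83.2% of the exon bases of CYP51A1. The causes were not tested.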

Other observations

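Several of the 14 tested sterol transport genes that are not among the 34 moved in opposite directions in the lines. 4 of them fell in TE10 and rose in Kyse410, as did 3.63% of all genes, and 1 did the reverse. The share of all genes with the reverse pair of directions was not counted. GRAMD1B, which moves plasma membrane cholesterol to the endoplasmic reticulum, averaged 157 CPM in TE10 shUHRF1 and 229 CPM in TE10 scramble libraries, and 283 CPM in Kyse410 shUHRF1 and 112 CPM in Kyse410 scramble libraries. GRAMD1B fell by 0.54 in TE10 (SE 0.0446) and rose by 1.34 in Kyse410 (SE 0.0434), a difference of 1.88 (SE 0.0622, edgeR adjusted p = 4.47e-30). NPC2, the lysosomal partner of NPC1, fell by 0.55 in TE10 (SE 0.0767) and rose by 0.36 in Kyse410 (SE 0.0782). LRP1, a lipoprotein receptor, fell by 0.40 in TE10 (SE 0.0588) and rose by 0.66 in Kyse410 (SE 0.0475). OSBPL5, an oxysterol-binding protein relative, fell by 0.65 in TE10 (SE 0.0618) and rose by 0.17 in Kyse410 (SE 0.0537). Its relative OSBPL2 rose by 0.39 in TE10 (SE 0.0687) and fell by 0.35 in Kyse410 (SE 0.0555), a difference of −0.73 (SE 0.0883, adjusted p = 1.32e-09). The receptor LRP8 rose by 1.23 in Kyse410 (SE 0.0819) and by 0.18 in TE10 (SE 0.0579, adjusted p = 0.0106). CAV1, which coats cholesterol-rich caveolae, fell by 0.77 in TE10 (SE 0.0408) and by 0.82 in Kyse410 (SE 0.0414).

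CH25H, which makes an oxysterol that binds the LXRs and INSIG proteins, averaged 0.478 CPM in Kyse410 shUHRF1 and 3.05 CPM in Kyse410 scramble libraries, and fell by 2.68 on the log2 scale (SE 0.414, adjusted p = 2.72e-07). It was at most 0.0868 CPM on average in either TE10 group. CH25H had enough reads to be tested only through the Kyse410 scramble libraries, where it was highest, so the filter favoured a fall. PLTP, an LXR target that transfers phospholipids between lipoproteins, rose by 1.17 in Kyse410 (SE 0.266, adjusted p = 0.000213). These genes were picked from the counted lists after their values were seen.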
